A study of Mus musculus with 18 samples.

Results

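The genes described here encode the nuclear-encoded subunits of oxidative phosphorylation (OXPHOS), measured by RNA-seq in a cultured mouse brown adipocyte line. They were chosen by symbol: rows of the count table beginning with Ndufa, Ndufb, Ndufc, Ndufs or Ndufv and a number, Sdha to Sdhd, and rows beginning with Uqcr, Cox4 to Cox8 or Atp5, with Cox7a1 and Cox8b left out. The rule uses no measured value and found 82 of 20295 rows, of which 36 belong to complex I, 4 to complex II, 8 to complex III, 17 to complex IV and 17 to complex V. After a filter on low counts, 79 of them were tested among 12156 genes. The 3 others, Cox6b2, Cox7b2 and Cox8c, reached at most 12, 1 and 1 counts in any library. The pattern of symbols also takes in 4 genes that are not subunits. These are Cox7a2l, a factor of supercomplex assembly, Atp5s and Atp5sl, counted with complex V by symbol alone, and Ndufa4l2, a paralogue of Ndufa4. Ndufa4 itself, long listed with complex I, was counted with complex IV.

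Oxidative phosphorylation passes electrons from NADH and succinate through complexes I to IV to oxygen, pumps protons across the inner mitochondrial membrane and lets complex V, the ATP synthase, make ATP from the gradient. Most subunits are encoded in the nucleus and only a few of the core ones in mitochondrial DNA. Brown adipocytes hold much respiratory chain, and UCP1 lets their proton gradient run down as heat.

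The cells were BAT-LgT, brown preadipocytes of 1 line immortalised with the SV40 large T antigen and differentiated in culture. At day 7 they were left alone or had ATGL and HSL, the enzymes that release fatty acids from stored fat, inhibited for 1 h (Lipase Inh.), after which DMSO (Vehicle), 100 nM isoproterenol (ISO, a β-adrenergic agonist) or SR-3420 was given for 3 h. SR-3420 binds ABHD5, the co-activator of ATGL, and so starts lipolysis without a β-adrenergic receptor. The labels give its dose as 10 µM, the study's text gives another, and which was used was not settled here. The comparisons ask what β-adrenergic stimulation and lipolysis each do to transcription. Each of the 6 combinations had 3 samples. The study speaks of 3 independent experiments, while the labels do not say whether samples came from separate cultures, so p-values measure the spread between these samples.

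Total counts lay between 10310447 and 21205032 in 17 libraries, whereas Lipase Inh. + SR-3420 replicate 2 held 4263755, with 18.3% of them in 1 gene, Lars2. OXPHOS members took from 0.813% to 1.41% of the counts of a library, and the 95% Wilson intervals of these shares are narrow (0.809% to 0.817% for the lowest). Of 9 brown adipocyte markers 8 passed the filter (Dio2 did not), and their summed level lay between 6298 and 9920 CPM (counts relative to the TMM-scaled size of the library). In Vehicle the largest parts were Adipoq (mean 3593 CPM), Fabp4 (2603), Plin1 (762) and Pparg (537). Ucp1 (2.69), Elovl3 (4.34) and Dio2 (0.0211) added little, with Prdm16 (29.5) and Cidea (40.4 to 65.7 over the libraries) in between. The sum therefore mostly follows the first genes named and does not by itself measure brown identity. The 3 endothelial markers summed to at most 0.524 CPM. The 4 macrophage markers summed to 1.96 to 6.30 CPM, of which Cd68 passed the filter and Ptprc was at 0 in every library. In bulk RNA, fewer cells of a type and less RNA per cell cannot be told apart.

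In Vehicle the members spanned a wide range of levels per length. Cox8a, the common isoform of subunit 8 of cytochrome c oxidase, stood highest at 1291 ± 532 CPM per kb (SD, n = 3), but its 3 libraries differed widely. Atp5b, the catalytic β subunit of ATP synthase, stood at 1204 ± 103 CPM per kb and was the highest of complex V. Uqcrq, a small subunit of complex III, led its complex at 566 ± 98.0 CPM per kb. Sdhd, a membrane anchor of succinate dehydrogenase, led complex II at 296 ± 20.3 CPM per kb and Ndufb11, an accessory subunit, led complex I at 245 ± 14.4 CPM per kb. The spread of Cox8a covers the level of Atp5b, so the order of these genes is not settled. At the lower end stood Ndufa4l2 at 4.77 ± 0.425, Cox6a2, the isoform of heart and skeletal muscle, at 5.01 ± 1.42 and Atp5g2, which has 3 near-identical copies in the genome, at 5.78 ± 0.785 CPM per kb. Near-identical copies can take or lend reads, and 14 of the 82 members have at least 1 (95% identity over 50% of the transcript). How reads with several matches were counted is not given in the sources used here, so the levels of these 14 are uncertain.

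The sequences just upstream of 6 members described below are shown because members moved in groups. Each run is the 250 bases before the start annotated in the count table, read from the mm9 genome on the gene's strand, 5′ to 3′. Capitals mark a match to letters searched on both strands: CCGGAAG (core of ETS factors such as GABPA), TGACG (short CRE core), TGACGTCA (full CRE, which holds TGACG on both strands) and AAGGTCA (site of oestrogen-related receptors, ERR). Uqcr11 and Cox8a were among the 3 named for the largest fall with SR-3420. Atp5d and Atp5g1 were among the 3 named for the largest rise with ISO under lipase inhibitors, Atp5g3 encodes the same mature subunit as Atp5g1, and Uqcrfs1 rose with ISO both with and without inhibitors.
Uqcr11 (chr10:79869567-79869816, minus strand): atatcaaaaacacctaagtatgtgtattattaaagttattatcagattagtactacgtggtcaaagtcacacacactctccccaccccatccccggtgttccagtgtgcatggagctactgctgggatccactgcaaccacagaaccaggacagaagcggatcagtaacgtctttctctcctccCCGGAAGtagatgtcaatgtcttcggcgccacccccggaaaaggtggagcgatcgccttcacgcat
Cox8a (chr19:7292107-7292356, minus strand): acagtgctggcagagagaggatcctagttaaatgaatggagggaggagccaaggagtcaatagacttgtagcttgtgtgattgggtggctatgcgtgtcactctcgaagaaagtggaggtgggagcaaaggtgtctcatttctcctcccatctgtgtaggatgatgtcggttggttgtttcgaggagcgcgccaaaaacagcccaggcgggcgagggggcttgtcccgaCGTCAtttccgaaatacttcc
Atp5d (chr10:79604810-79605059, plus strand): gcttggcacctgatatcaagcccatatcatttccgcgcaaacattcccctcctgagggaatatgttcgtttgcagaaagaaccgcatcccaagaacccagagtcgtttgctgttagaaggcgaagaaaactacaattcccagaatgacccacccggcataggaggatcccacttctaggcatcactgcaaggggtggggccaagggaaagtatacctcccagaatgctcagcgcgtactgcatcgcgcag
Atp5g1 (chr11:95937009-95937258, minus strand): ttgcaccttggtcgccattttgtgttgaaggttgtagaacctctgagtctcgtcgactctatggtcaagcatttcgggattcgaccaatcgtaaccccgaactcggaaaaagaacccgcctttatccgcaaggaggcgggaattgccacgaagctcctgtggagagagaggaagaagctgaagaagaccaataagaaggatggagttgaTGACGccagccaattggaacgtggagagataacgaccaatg
Atp5g3 (chr2:73749384-73749633, minus strand): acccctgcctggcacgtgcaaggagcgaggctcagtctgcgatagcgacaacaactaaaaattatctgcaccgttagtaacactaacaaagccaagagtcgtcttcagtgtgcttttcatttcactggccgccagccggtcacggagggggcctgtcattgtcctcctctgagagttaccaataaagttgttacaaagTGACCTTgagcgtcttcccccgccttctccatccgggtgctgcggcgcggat
Uqcrfs1 (chr13:30637186-30637435, minus strand): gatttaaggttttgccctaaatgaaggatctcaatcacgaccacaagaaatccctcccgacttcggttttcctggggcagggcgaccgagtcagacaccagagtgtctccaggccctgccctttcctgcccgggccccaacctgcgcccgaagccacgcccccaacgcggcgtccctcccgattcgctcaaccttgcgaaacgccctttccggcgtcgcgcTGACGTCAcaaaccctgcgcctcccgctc

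Uqcr11 carried CCGGAAG starting 66 bases before the start, Cox8a TGACG at 21 (reverse strand, read as CGTCA) and Atp5g1 TGACG at 41 bases before it. Atp5g3 carried AAGGTCA on the reverse strand, read here as TGACCTT, 52 bases before the start, and Uqcrfs1 held the full CRE at 29 bases. None of the searched letters occurred in the window of Atp5d. Ndufb3, also named for the largest falls, and Cox6c, also named for the largest rises, are not shown. Their windows held none of the searched letters either. The windows shown were picked and do not stand for the members as a whole. Over the 79 members, AAGGTCA occurred in 7 windows (8.86%, against 2.44% of all genes tested) and the NRF1 core GCATGCGC in 8 (10.1% against 4.50%). CCGGAAG occurred in 12 (15.2% against 14.4%), TGACG in 27 (34.2% against 27.3%), TGACGTCA in 4 (5.06% against 2.84%) and the YY1 core in 0 (against 0.724%). These shares describe letters in a window and name no site of binding.

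Among the 18 libraries the members moved together by treatment. Each member was expressed as log2 CPM minus its own mean over the 3 Vehicle libraries. The median over members was lowest in the 3 SR-3420 libraries, at -0.47, -0.32 and -0.49. It was highest in the 3 Lipase Inh. + ISO libraries, at 0.34, 0.37 and 0.26. The ISO libraries differed among themselves: replicate 2 stood at 0.26, whereas replicates 1 and 3 stood at 0.00 and -0.06. Vehicle replicate 1 (0.12) stood above the other Vehicle libraries (-0.04 and -0.07). The corresponding median over all genes tested lay between -0.02 and 0.01 in every library.

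**Figure D1:**
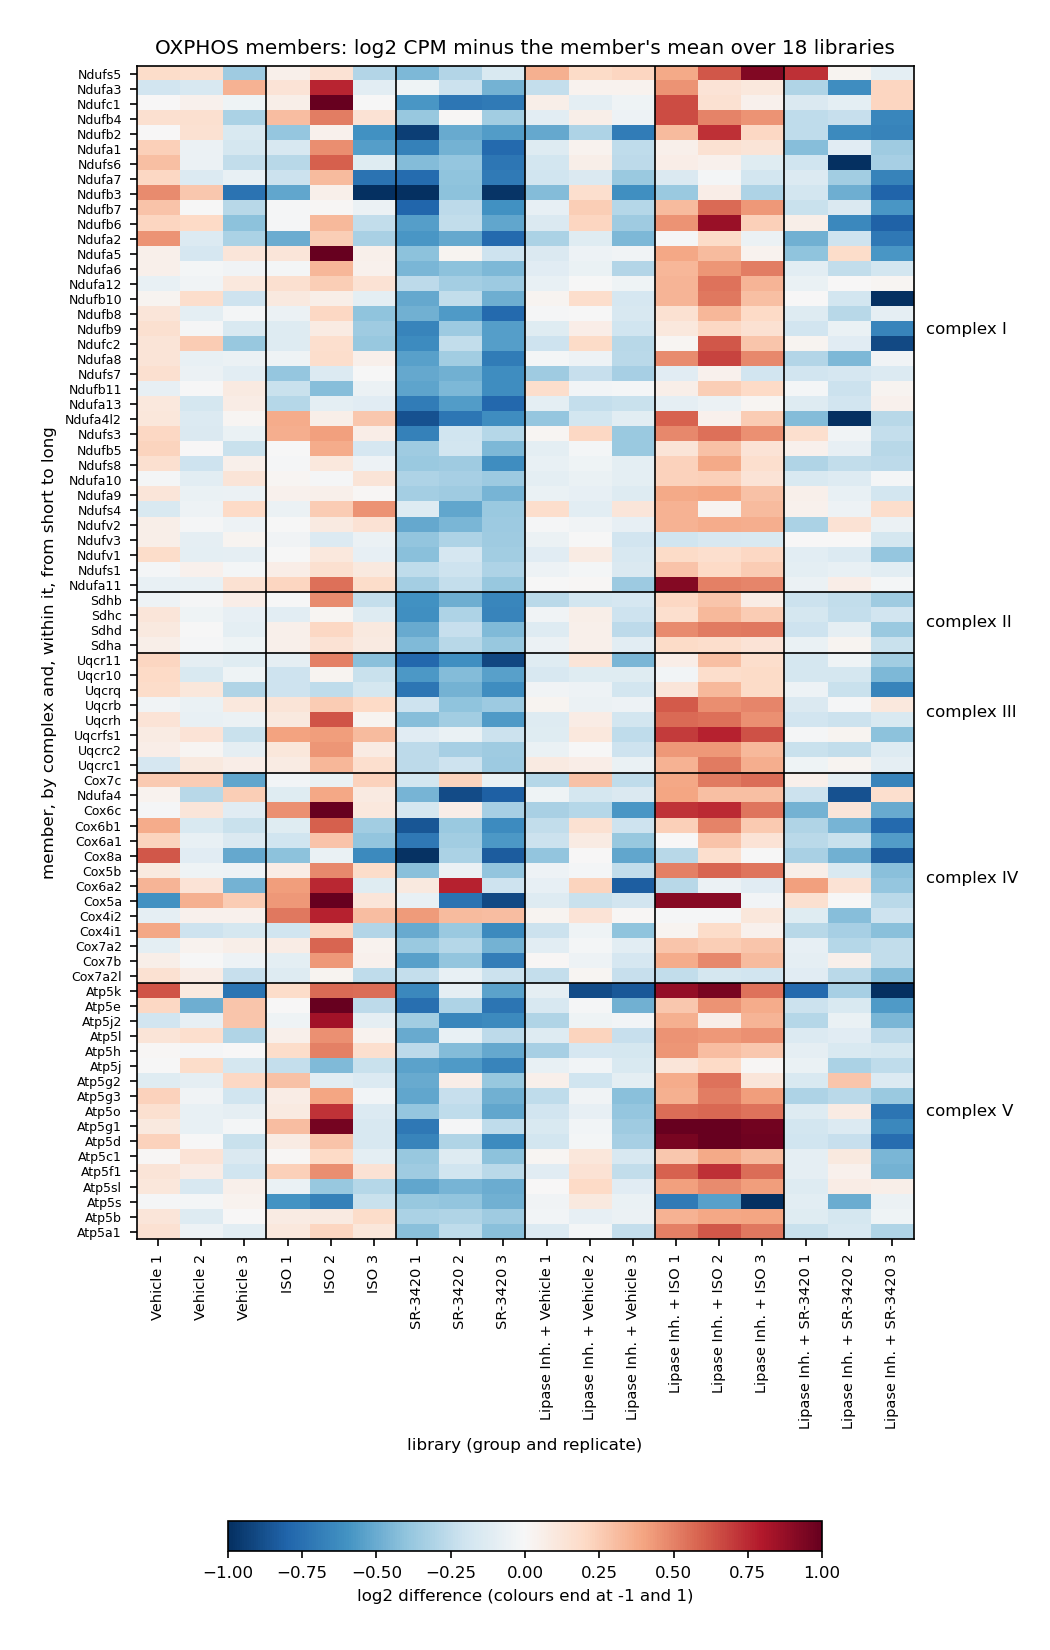
Heat map of 78 of the tested members (rows, by complex and from short to long) in the 18 libraries (columns, by group and replicate). Colours give log2 CPM minus the member's mean over the Vehicle libraries, although the title of the picture names the mean over all libraries. The SR-3420 columns are blue for nearly all rows, the Lipase Inh. + ISO columns are red, and ISO replicate 2 is redder than the other ISO libraries.

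SR-3420 lowered OXPHOS transcripts across all 5 complexes. Of 79 members 59 fell (edgeR quasi-likelihood test, Benjamini-Hochberg adjusted p of at most 0.05 over all genes) and 1 rose, whereas 25.4% of all genes tested fell and 26.0% rose. The changes were small: the median log2 fold change over members was -0.42, against -0.02 over all genes, and 0 members passed a log2 fold change of at least 1 in size, as 3.97% of all genes did upward and 2.37% downward. By complex, 30 of 36 members of complex I fell, 4 of 4 of complex II, 7 of 8 of complex III, 7 of 14 of complex IV and 11 of 17 of complex V. The medians of the complexes lay between -0.46 and -0.39. In 55 members the SR-3420 libraries lay entirely below the Vehicle libraries, which 27.7% of all genes did. With total counts alone the median of all genes was -0.18, that of the members -0.58, and 69 members were lower, beside 35.9% of all genes. With the trend of fold change with transcript length removed, 25 members were lower, beside 23.3% of all genes, and their median was -0.22.

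Summed CPM shows the size of the fall in each complex. Complex I summed to 1713 ± 105 CPM with SR-3420 (SD, n = 3) against 2303 ± 121 with Vehicle. Complex V, of which Atp5b makes up much, summed to 3423 ± 167 against 4417 ± 375 CPM. The libraries of SR-3420 and Vehicle did not overlap in any of the 5 sums, although for complex IV the highest SR-3420 library (1527 CPM) came close to the lowest Vehicle library (1533 CPM). The summed preadipocyte or fibroblast markers (6 genes, 6 passing the filter) were higher with SR-3420, at 136 to 139 CPM against 89.6 to 119 CPM with Vehicle. Col1a1 made up most of this sum (mean 91.1 CPM with SR-3420, 67.6 with Vehicle). Mean Pdgfra, Thy1 and Dlk1 were also higher, whereas Ly6a (3.59 and 3.93 CPM) and Cd34 (0.937 and 0.946 CPM) were not. The part of these markers in the result was not tested. Summed brown adipocyte markers lay at 7086 to 7512 CPM with SR-3420 and 7339 to 8083 CPM with Vehicle. The largest parts of this sum moved in opposite directions. Mean Adipoq was 2508 CPM with SR-3420 and 3593 with Vehicle, and mean Pparg 302 and 537 CPM. Mean Fabp4 was 3215 and 2603 CPM, and mean Plin1 1075 and 762 CPM. The part of these markers in the fall was not tested either.

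Uqcr11, a small subunit of complex III, stood at 42.3, 34.3 and 33.4 CPM in Vehicle and at 21.1, 23.8 and 19.3 CPM with SR-3420. All SR-3420 libraries lay below all Vehicle libraries (log2 fold change -0.79 ± 0.18, SE, with an adjusted p of 0.000763). Uqcr11 has near-identical copies. Ndufa13, an accessory subunit of complex I also known as GRIM-19, went from 75, 61.9 and 73.5 CPM to 43.1, 47.3 and 40.6 CPM (-0.69 ± 0.09, adjusted p = 1.14e-06), again with no overlap. The span of Ndufa13 overlaps Tssk6 on the other strand, and the sources used here do not say whether reads were counted by strand. Ndufb3, another accessory subunit, which has a near-identical copy, had the most negative value of those named by rule, -0.92 ± 0.27 (adjusted p = 0.00773), but its Vehicle libraries ranged from 26.8 to 62.4 CPM and overlapped those of SR-3420 (20.1 to 33.7 CPM). Cox8a fell by 0.76 ± 0.22 on the log2 scale (adjusted p = 0.00672), from 1028, 616 and 468 CPM to 337, 535 and 374 CPM, and these libraries overlapped as well. Without Vehicle replicate 1 both calls were lost, at an adjusted p of 0.0716 for Ndufb3 and 0.128 for Cox8a.

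Among the catalytic and electron-carrying core subunits most fell with SR-3420. In complex I the core subunits Ndufs1, Ndufs3, Ndufs7, Ndufs8, Ndufv1 and Ndufv2 each fell with SR-3420, from -0.26 ± 0.06 for Ndufs1 (adjusted p = 0.000583) to -0.55 ± 0.10 for Ndufs7 (adjusted p = 6.45e-05). The 4 subunits of succinate dehydrogenase fell by 0.37 (Sdha) to 0.59 (Sdhb) on the log2 scale. Uqcrc1 and Uqcrc2, the core proteins of complex III, fell by 0.28 and 0.32, whereas Uqcrfs1, the Rieske iron-sulfur protein, did not pass the test (-0.14 ± 0.11, adjusted p = 0.285). In the ATP synthase, Atp5a1 (-0.37 ± 0.08) and Atp5b (-0.33 ± 0.07) of the catalytic head fell, as did Atp5c1 of the central stalk (-0.31 ± 0.11). Cox5a and Cox5b, which sit beside the catalytic core of complex IV, had values of -0.59 ± 0.28 and -0.29 ± 0.12 and did not pass (adjusted p = 0.0889 and 0.0524).

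The member that rose with SR-3420 was Cox4i2, the isoform of subunit 4 known from lung and hypoxia. It is a low gene, at 4.42, 4.87 and 4.85 CPM in Vehicle and 6.39, 5.89 and 5.87 CPM with SR-3420 (0.36 ± 0.15, adjusted p = 0.0465). The groups did not overlap, but the call was lost on leaving out each of the 6 libraries in turn and with DESeq2. Its paralogue Cox4i1, the common isoform, fell by 0.53 ± 0.14 (adjusted p = 0.00256). The span of Cox4i2 overlaps Bcl2l1 on the other strand. Per length, Cox4i1 stood at 420 ± 102 CPM per kb in Vehicle and Cox4i2 at 6.49 ± 0.347.

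With ISO alone fewer members passed the test than genes did in general. Of 79 members 12 rose and 3 fell, beside 26.8% and 25.0% of all genes tested, and their median log2 fold change was 0.07 (all genes -0.02). Complex III had the highest median, 0.20, with 4 of 8 members higher. The count leans on 1 library: without ISO replicate 2, 2 members were higher and 7 lower. Without Vehicle replicate 2 the count higher was 5, without Vehicle replicate 3 it was 7 with 5 lower, and without ISO replicate 3 the count lower was 5. At a log2 fold change of at least 1 in size 0 members passed, beside 5.03% of all genes higher and 4.07% lower. It also depends on the scaling, since with total counts alone, where the median of all genes shifts to -0.33, 0 members were higher and 30 lower, beside 12.3% and 49.4% of all genes.

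Uqcrfs1 was among the members that rose with ISO. It stood at 709, 739 and 576 CPM in Vehicle and at 889, 897 and 837 CPM with ISO, with no overlap (0.37 ± 0.11, adjusted p = 0.00506; with total counts alone 0.07, adjusted p = 0.613). Cox6c, a small subunit of complex IV with a near-identical copy, had the largest value of those named, 0.69 ± 0.21 (adjusted p = 0.00790), from 8.97, 9.89 and 8.38 CPM to 12.5, 21.4 and 9.77 CPM. Its groups overlapped, and without ISO replicate 2 the call was lost (adjusted p = 0.159). Ndufa11, an accessory subunit of complex I, rose by 0.33 ± 0.13 (adjusted p = 0.0450) and lost the call without ISO replicate 2 or Vehicle replicate 1 or 2. Atp5s fell with ISO from 18.8, 18.6 and 19.3 CPM to 12.4, 11.8 and 16.2 CPM, with no overlap (-0.50 ± 0.13, adjusted p = 0.00313). Atp5j, coupling factor 6 of the peripheral stalk, fell by 0.31 ± 0.09 (adjusted p = 0.00610; 0.0644 without Vehicle replicate 2), and it lies opposite Gabpa on the other strand. Ndufb11, which has a near-identical copy and lies opposite Rbm10, fell by 0.23 ± 0.09 (adjusted p = 0.0335), a call that was lost on leaving out ISO replicate 1 or 2 or Vehicle replicate 2 or 3.

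**Figure D2:**
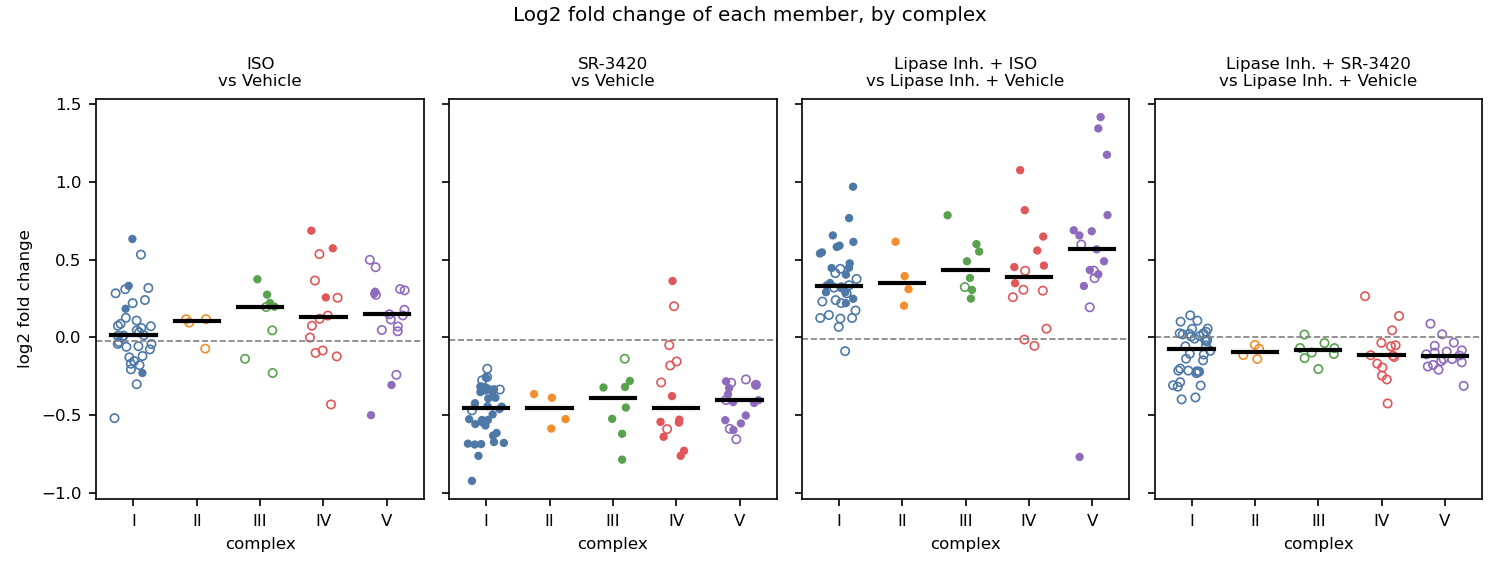
Log2 fold change (y axis) of each tested member by complex (x axis) in 4 comparisons. Filled points have an adjusted p of at most 0.05, open points do not, black bars are the median of the complex and the dashed line is the median over all genes tested. The medians of the 5 complexes lie below 0 with SR-3420, where Cox4i2 is the filled point above 0, and above 0 with ISO under lipase inhibitors, where Atp5s is the filled point below 0. No point is filled with SR-3420 under inhibitors.

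With lipolysis blocked, ISO raised OXPHOS transcripts. Against Lipase Inh. + Vehicle, 49 of 79 members rose and 1 fell with Lipase Inh. + ISO, beside 29.4% and 28.3% of all genes tested. The median over members was 0.39 (all genes -0.01) and 75 members lay above 0. Complex V had the highest median, 0.57, with 12 of 17 higher, followed by complex III (0.44, 7 of 8), complex IV (0.39, 7 of 14), complex II (0.35, 4 of 4) and complex I (0.33, 19 of 36). The groups did not overlap in 64 members in which Lipase Inh. + ISO was higher, against 33.4% of all genes. With total counts alone the median of all genes was -0.24, that of the members 0.17, and 21 members were higher and 3 lower, beside 16.2% and 42.1% of all genes.

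Summed over complex V, Lipase Inh. + ISO reached 6252 ± 182 CPM against 4123 ± 168 CPM in Lipase Inh. + Vehicle (SD, n = 3), and over complex III 2157 ± 89.2 against 1453 ± 117 CPM. The groups did not overlap in these sums or in those of complexes I and II, whereas for complex IV Lipase Inh. + ISO (1793 to 2116 CPM) overlapped Lipase Inh. + Vehicle (1429 to 1867 CPM). Summed preadipocyte or fibroblast markers overlapped as well, at 89.7 to 113 and 94.5 to 103 CPM. Summed brown adipocyte markers were higher with Lipase Inh. + ISO (8164 to 8489 CPM) than with Lipase Inh. + Vehicle (6298 to 7057 CPM). Among these, mean Ucp1 was 675 CPM with Lipase Inh. + ISO and 2.37 with Lipase Inh. + Vehicle, whereas Cidea was 49.6 and 51.9 and Pparg 514 and 516 CPM. The part of these markers in the result was not tested.

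ATP synthase genes led. Atp5g1, which encodes the c subunit of the rotor ring, stood at 13.2, 14.4 and 11.4 CPM in Lipase Inh. + Vehicle and at 30.5, 39.8 and 28.8 CPM in Lipase Inh. + ISO, 2.54-fold higher with no overlap (1.34 ± 0.21, adjusted p = 9.19e-06). Atp5d, the δ subunit of the central stalk, went from 445, 498 and 401 CPM to 975, 1067 and 991 CPM (1.17 ± 0.14, adjusted p = 2.57e-07), also without overlap. These and Cox6c (1.08 ± 0.21, adjusted p = 0.000152) were, with Atp5k, the 4 members past a log2 fold change of 1, beside 5.43% of all genes higher by that rule and 7.63% lower. Atp5k, subunit e of the membrane part, is a low gene with a near-identical copy (2.55, 1.40 and 1.44 CPM against 5.13, 5.40 and 4.06 CPM; 1.42 ± 0.30, adjusted p = 0.000336) and was named after its values were seen. Atp5s was the member that fell, from 18.4, 20.2 and 18.1 CPM to 11.5, 12.9 and 9.23 CPM (-0.77 ± 0.13, adjusted p = 3.92e-05).

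The 3 genes for the same c subunit differed. Atp5g3, the most abundant per length in Vehicle (362 ± 55.2 CPM per kb), rose by 0.66 ± 0.11 with Lipase Inh. + ISO (adjusted p = 4.22e-05). Atp5g1 (18.4 ± 1.17 CPM per kb) rose by 1.34 as above, and Atp5g2 had a value of 0.43 ± 0.20 that did not pass (adjusted p = 0.0727). The difference between the 3 genes was not tested. Of the other isoform groups, Cox7a2 rose by 0.35 ± 0.11 (adjusted p = 0.00791) and its relative Cox7a2l did not pass (-0.06 ± 0.10, adjusted p = 0.654). Cox4i1 (0.30 ± 0.14) and Cox6a1 (0.31 ± 0.15) did not pass, nor did Cox6b1 (0.43 ± 0.19) and Cox8a (0.26 ± 0.22), whereas Cox7b rose by 0.46 ± 0.11 (adjusted p = 0.000904). Cox6a2 had values between -0.27 and 0.37 over the comparisons of 2 groups, ISO against SR-3420 included, and passed in none.

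Core subunits rose with ISO under inhibitors as well. Uqcrfs1 went from 616, 723 and 563 CPM to 1088, 1145 and 1044 CPM (0.79 ± 0.11, adjusted p = 1.54e-06), with no overlap. Sdhd went from 348, 394 and 316 CPM to 529, 544 and 547 CPM (0.62 ± 0.09, adjusted p = 2.82e-06), again with no overlap. Both catalytic subunits of the ATP synthase head rose, Atp5a1 by 0.68 ± 0.08 (adjusted p = 1.07e-07) and Atp5b by 0.43 ± 0.07 (adjusted p = 1.17e-05). Of the core subunits of complex I named above, 5 rose, by 0.25 (Ndufv1) to 0.54 (Ndufs3), and Ndufs7 did not pass (0.22 ± 0.10, adjusted p = 0.0535).

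**Figure D3:**
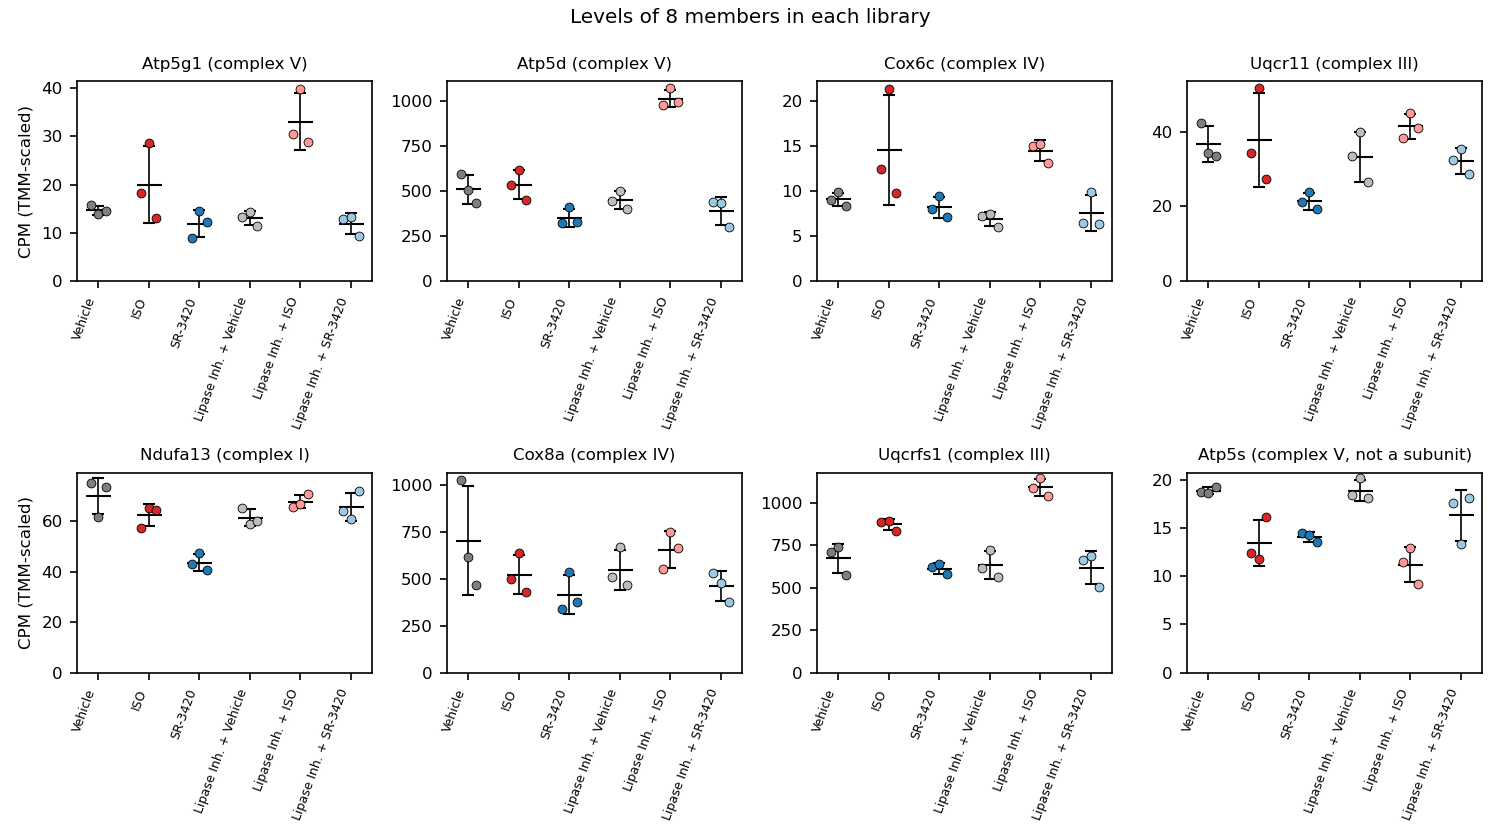
Level in CPM (y axis, from 0) of 8 members in each library, by group (x axis), with the mean and the SD of 3 replicates as bars. Atp5g1 and Atp5d are highest in Lipase Inh. + ISO, Uqcr11 and Ndufa13 lowest in SR-3420, and Atp5s is lower in both ISO groups than in both Vehicle groups.

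The inhibitors alone moved few genes, and 0 members passed in either direction (edgeR), as against 0.485% of all genes higher and 0.428% lower. At an unadjusted p under 0.05, 0 members were higher and 6 lower, and DESeq2 also called 0. The median over members was -0.10, and 71 of 79 lay below 0. With SR-3420 under inhibitors 0 members passed too, beside 2.99% of all genes higher and 1.36% lower, with 0 higher and 1 lower at an unadjusted p under 0.05 and 0 by DESeq2. Their median there was -0.11. A p that misses the threshold does not show that the levels were alike. The Lipase Inh. + SR-3420 comparison holds the shallow library, and without it the count was also 0.

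Whether the inhibitors changed the effect of each stimulus was tested with an interaction, the log2 effect with inhibitors minus the effect without. All 4 effects share the Vehicle or the Lipase Inh. + Vehicle samples. For ISO, 23 members had a higher effect with inhibitors and 1 a lower one, beside 14.9% and 16.6% of all genes, and the median over members was 0.33 (all genes 0.01). For SR-3420 the counts were 24 and 1, beside 12.5% and 14.8%, and the median was 0.34 (all genes 0.01). With the trend with length removed, 8 members had a higher effect of ISO under inhibitors and 6 of SR-3420, which is no larger a share than the 15.8% and 12.5% of all genes, and the medians were 0.15 and 0.15. The member with a lower effect was Cox4i2 in both (-0.59 ± 0.21, adjusted p = 0.0396, and -0.63 ± 0.22, adjusted p = 0.0377), and in both this call was lost with DESeq2, total counts alone, no filter, the compared groups alone and thinning, and on leaving out any of 10 of the 12 libraries. Without ISO replicate 2 the ISO count was 42, and it was 13 without Lipase Inh. + ISO replicate 2 or Lipase Inh. + Vehicle replicate 3, 14 without Vehicle replicate 1 and 15 without ISO replicate 1. The SR-3420 count was 12 without Lipase Inh. + Vehicle replicate 3 and 13 without SR-3420 replicate 3.

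For ISO, Atp5d had the largest interaction of those named, 1.11 ± 0.20 (adjusted p = 0.000150): its own effect was 0.07 ± 0.14 without inhibitors and 1.17 ± 0.14 with them. Atp5g1 followed at 0.89 ± 0.30 (adjusted p = 0.0247), which did not pass on leaving out Vehicle replicate 1, ISO replicate 1 or 3, Lipase Inh. + Vehicle replicate 3 or Lipase Inh. + ISO replicate 2. Atp5sl, no subunit and counted with complex V by symbol alone, had an interaction of 0.65 ± 0.15 (adjusted p = 0.00175). It stood at 26.4, 21.7 and 25.1 CPM in Vehicle and at 23.2, 18.6 and 20.0 with ISO. In Lipase Inh. + Vehicle it stood at 24.4, 28.0 and 22.4 and in Lipase Inh. + ISO at 32.4, 33.9 and 32.6 CPM. Past a log2 interaction of 1 were 3 members, Atp5d, Atp5k (1.11 ± 0.42, adjusted p = 0.0478) and Ndufb2, an accessory subunit of complex I (1.27 ± 0.30, adjusted p = 0.00267), the latter pair low in counts and named after their values were seen. By that rule 2.18% of all genes were higher and 4.71% lower for ISO, and for SR-3420 0 members passed beside 1.40% and 2.42%.

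For SR-3420, Ndufa13 had the largest interaction of those named, 0.79 ± 0.12 (adjusted p = 6.06e-05). It stood at 65.3, 59.1 and 60 CPM in Lipase Inh. + Vehicle and at 63.9, 61 and 71.9 CPM in Lipase Inh. + SR-3420, so the low values seen with SR-3420 alone did not appear there. Ndufs7, the core subunit that holds the last iron-sulfur cluster before ubiquinone, followed (0.69 ± 0.14, adjusted p = 0.000742), with 53.6, 46.1 and 44.5 CPM in Vehicle, 33.6, 34.4 and 31.1 with SR-3420, 37.5, 40.9 and 38.1 in Lipase Inh. + Vehicle and 41.9, 42.6 and 43.6 in Lipase Inh. + SR-3420. Its Lipase Inh. + Vehicle libraries thus already lay below the Vehicle libraries (-0.31 ± 0.09, adjusted p = 0.153). Uqcr11 had an interaction of 0.72 ± 0.25 (adjusted p = 0.0371) that did not pass on leaving out any of 7 libraries (adjusted p = 0.0627 to 0.110).

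ISO and SR-3420 were also set side by side. Of 79 members 64 were higher with ISO and 0 lower, beside 15.8% and 13.9% of all genes, and the median difference was 0.51 (all genes -0.01). In 62 members the ISO libraries lay entirely above the SR-3420 libraries, as 22.4% of all genes did. By complex the counts were 29 of 36, 4 of 4, 8 of 8, 9 of 14 and 14 of 17. Cox5a had the largest difference of those named (13.5, 19.9 and 10.8 CPM with ISO, 9.41, 5.89 and 5.24 CPM with SR-3420; 1.13 ± 0.28, adjusted p = 0.00408), with no overlap. Atp5j2, subunit f of ATP synthase, differed by 0.86 ± 0.19 (adjusted p = 0.00203) and Ndufa4 by 0.85 ± 0.17 (adjusted p = 0.000723). Past a difference of 1 were 4 members, Cox5a, Ndufc1, Atp5e and Ndufa4l2, beside 1.23% of all genes higher by that rule and 0.814% lower. Ndufc1, Atp5e and Ndufa4l2 are low in counts, and the first pair was named after its values were seen. ISO and SR-3420 act at different points and at different doses, so this difference holds for these doses only.

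OXPHOS transcripts are short, and short transcripts as a class moved in these data. The median counted length of the members tested is 681 bp. With SR-3420 the members up to that length had a median log2 fold change of -0.53 (27 of 40 lower) and the longer ones -0.38 (32 of 39 lower). Other genes up to 681 bp (330 genes) had a median of -0.30, with 38.8% lower, and longer other genes a median of -0.01, with 24.7% lower. When the trend with length was removed in each library, 25 of 79 members were lower with SR-3420 and 1 higher, as against 23.3% and 24.5% of all genes, and the median over members was -0.22.

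The rise with ISO under inhibitors depended less on length. Short members had a median of 0.42 (19 of 40 higher) and long ones 0.38 (30 of 39 higher). Other short genes had a median of 0.14, with 22.7% higher, and other long genes -0.02, with 29.4% higher. With the trend removed, 45 members were higher and 1 lower (all genes 31.1% and 27.3%), and the median was 0.29. The interaction calls did depend on it: as given above, the members' share with a higher effect was not above that of all genes once the trend was removed. The members' medians then were 0.15 for ISO and 0.15 for SR-3420, against 0.02 and 0.01 over all genes. Above 0 lay 66 and 61 of the 79 members. Short genes that are not members had interaction medians of 0.23 for ISO and 0.33 for SR-3420, against 0.00 and 0.00 for long ones. With ISO alone, short members had a median of 0.06 and other short genes -0.12, and with the trend removed 24 members were higher and 2 lower, beside 27.5% and 24.7% of all genes. In the named members, Cox8a (adjusted p = 0.0665) and Ndufb3 (adjusted p = 0.0507) lost their fall with SR-3420 when the trend was removed.

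**Figure D4:**
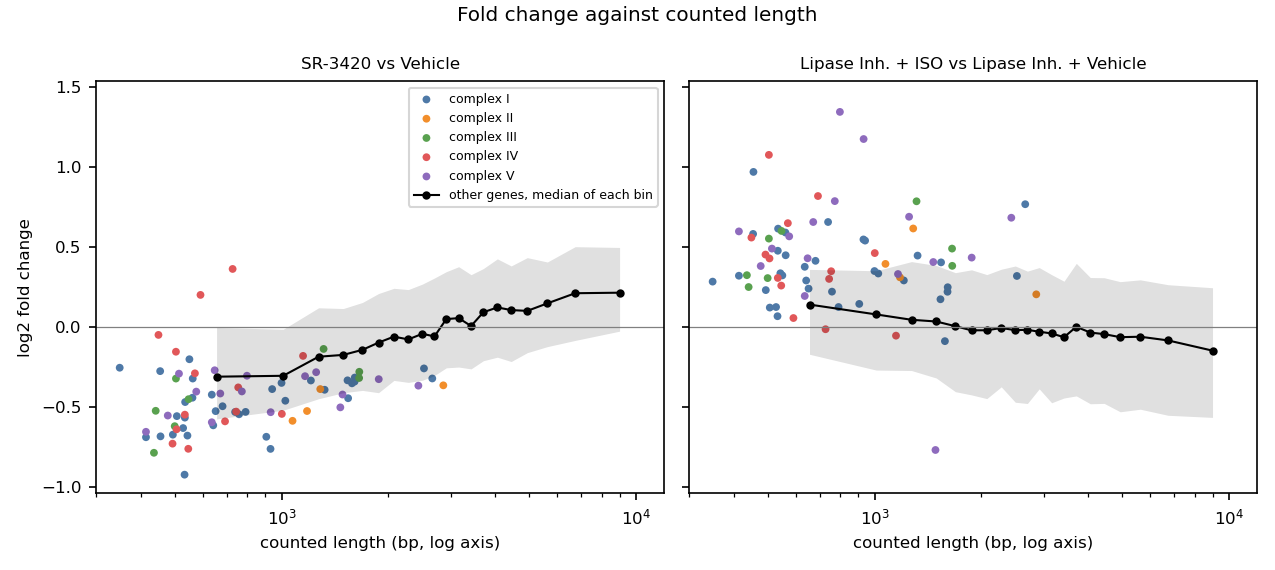
Log2 fold change (y axis) against counted length in bp (x axis, log scale) for members (coloured by complex) and for the other genes tested (black, median of each of 20 bins by length, shading from the lower to the upper quartile). With SR-3420 the black line falls toward short genes and most members lie below it, while with ISO under inhibitors most members lie above a flatter line. Ndufs5 (25 bp) and Atp5k (292 bp) lie outside the axis.

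Genes around the chain were described from lists, to be read against the shares of all genes given above (26.0% higher and 25.4% lower with SR-3420, 29.4% and 28.3% with ISO under inhibitors). Of 32 assembly factors tested, 3 rose and 15 fell with SR-3420, and 17 rose and 3 fell with ISO under inhibitors. Cox10 and Cox11, which serve heme and copper insertion into complex IV, rose by 1.50 ± 0.07 and 1.04 ± 0.08 in the latter, and Ndufaf4, an assembly factor of complex I, rose by 0.53 ± 0.08 with SR-3420 and by 1.48 ± 0.08 with ISO under inhibitors, opposite to the subunits in the first case. Of 14 enzymes of the TCA cycle, 1 rose and 7 fell with SR-3420, and 10 rose and 1 fell with ISO under inhibitors. Of 12 other chain parts, a list that holds cytochrome c, electron transfer flavoprotein and the left-out Cox7a1 and Cox8b, 2 rose and 6 fell, and 6 rose and 1 fell. Cycs, somatic cytochrome c, rose with SR-3420 (0.21 ± 0.08, adjusted p = 0.0362) and with ISO under inhibitors (1.24 ± 0.08, adjusted p = 2.19e-11), so it did not follow the subunits in the first comparison.

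Cox8b, the isoform of brown fat and muscle, fell with SR-3420 (-0.72 ± 0.16, adjusted p = 0.000544) and did not pass with ISO under inhibitors (0.04 ± 0.15, adjusted p = 0.856). It also fell with ISO (-0.46 ± 0.16, adjusted p = 0.0172), where Cox8a had a value of -0.43 ± 0.22 that did not pass (adjusted p = 0.108). Cox7a1 lay between 0.367 and 2.47 CPM and passed in 0 of the 8 comparisons.

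Known regulators of nuclear OXPHOS genes were described from a list as well. Ppargc1a, the coactivator PGC-1α, stood at 68.1, 86.6 and 72.4 CPM in Vehicle, at 1063, 1011 and 1167 CPM with ISO and at 159, 147 and 149 CPM with SR-3420, so it rose in both (3.83 ± 0.09, adjusted p = 9.94e-19, and 1.01 ± 0.08, adjusted p = 2.52e-09). With ISO under inhibitors it reached 332, 322 and 325 CPM from 90.5, 97.8 and 83.8 CPM (1.85 ± 0.08, adjusted p = 5.14e-14), a smaller rise (interaction -1.99 ± 0.12, adjusted p = 3.62e-11). Esrra, which encodes ERRα, did not pass with ISO (-0.03 ± 0.20, adjusted p = 0.924) and rose with ISO under inhibitors (1.32 ± 0.20, adjusted p = 6.97e-06; interaction adjusted p = 0.000801). Gabpa, the DNA-binding subunit of the ETS factor GABP, rose by 0.16 ± 0.06 and 0.87 ± 0.06 in the same comparisons, and Tfam, the transcription factor of mitochondrial DNA, by 0.27 ± 0.06 and 0.71 ± 0.06, each with a higher effect under inhibitors (interaction adjusted p = 4.48e-07 and 0.000740). Ppargc1b, the PGC-1β coactivator, stood at 90.8, 109 and 79 CPM in Vehicle and at 223, 217 and 188 CPM with ISO (1.17 ± 0.13, adjusted p = 8.71e-08), but at 98.1, 110 and 80.4 CPM in Lipase Inh. + Vehicle and 72.8, 80.8 and 59.7 CPM in Lipase Inh. + ISO (-0.44 ± 0.13, adjusted p = 0.00577), an interaction of -1.62 ± 0.18 (adjusted p = 4.49e-07). With Ppargc1a and Pprc1 (interaction -0.71 ± 0.13, adjusted p = 0.000213), 3 regulators had a lower and 3 a higher effect of ISO under inhibitors. Over the list of 12 tested, 8 rose and 1 fell with ISO, where 26.8% of all genes were higher, 7 rose and 2 fell with SR-3420, and 7 rose and 2 fell with ISO under inhibitors.

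**Figure D5:**
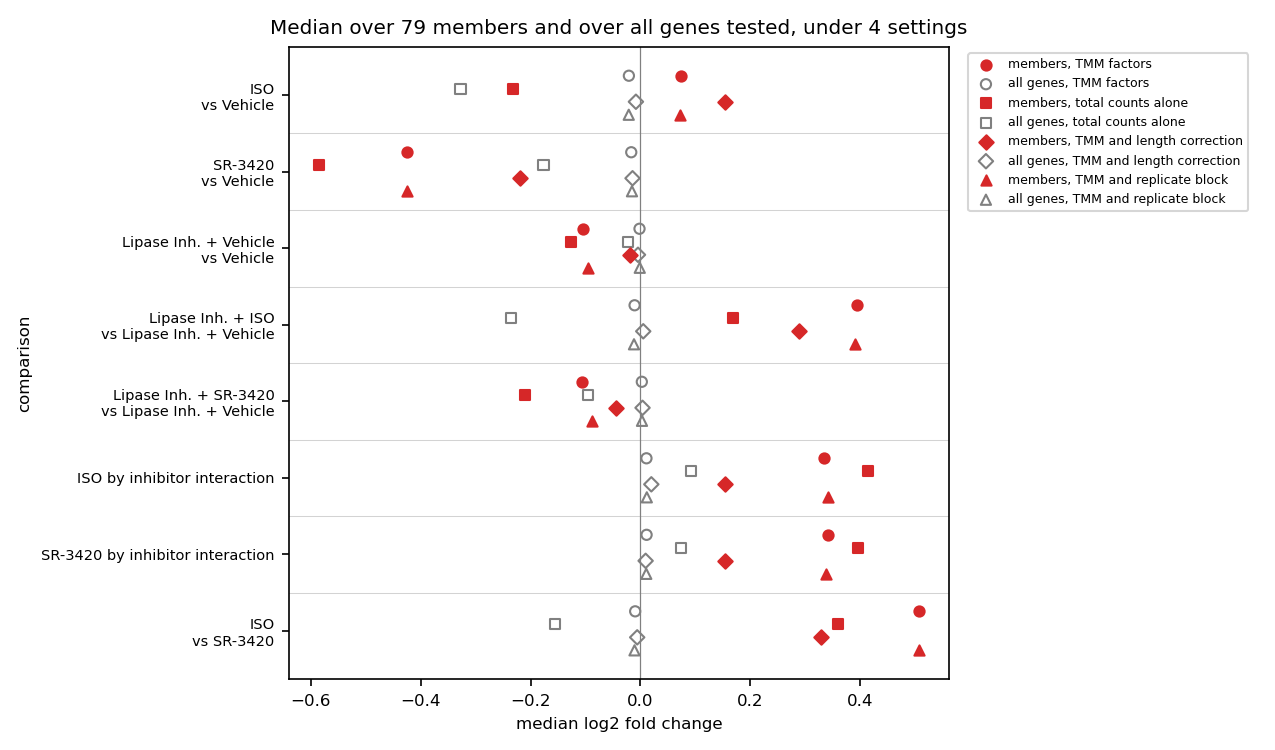
Median log2 fold change (x axis) over the 79 members (red) and over all genes tested (open grey) in the 8 comparisons (y axis), with TMM factors, with total counts alone, with the trend with length removed and with a replicate block. Members lie left of all genes with SR-3420 and right of them with ISO under inhibitors under each of the 4 settings, while with ISO alone the sign of the members' median changes with the scaling.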

How the data were processed

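RNA-seq was performed on 18 samples of differentiated BAT-LgT cells. Per the study's methods and the submitters' processing notes, the authors made TruSeq libraries, aligned them with STAR 2.4.2a, used HOMER to keep 1 read per position and length, and obtained a count for each RefSeq gene from iRNA-seq. The counts were deposited as whole numbers without normalisation, with gene position (mm9; hg19 is also listed) and counted length. Keeping 1 read per position can cap short abundant genes, but the deposited counts reached 29.8 per counted base for Cox8a and 31.1 for Atp5b. Whether they carry such a cap was not tested. Strand use and the treatment of multiple matches are not given in the sources used here.

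Groups came from sample titles. In R 4.3.3, edgeR 4.0.16 was used for filtering (filterByExpr, minimum count 10, minimum total 15), TMM factors, 1 quasi-likelihood model with a mean per group over the 18 samples and 8 contrasts, with Benjamini-Hochberg adjustment over 12156 genes and a call at an adjusted p of at most 0.05. The study also asked for a log2 fold change of at least 1. CPM are counts scaled by TMM library sizes, and the prior count on the log scale was 2. Genes were named as follows: per contrast and direction, up to 3 called members with the largest change, an average log2 CPM of 3 or more and 1 sign across same-numbered replicates; the highest member of each complex; isoform groups; core subunits; and members that are not subunits. Members and lists were chosen with earlier results of these data known. 1 member is counted in all totals and is not reported singly here. Near-identical copies were sought with minimap2 2.31. On simulated counts for SR-3420 against Vehicle (12052 genes tested), 39 of 100 genes lowered 1.35-fold were recovered. So were 87 of 100 genes raised 2-fold, with 4 other genes called. Far more genes were called in the data (3165 higher, 3089 lower), and the adjusted p depends on that number. The simulated shares therefore do not carry over to the data. Alternatives were DESeq2 1.42.0, its size factors, total counts alone, other filters, the compared groups alone, a replicate block, removal of the trend with length (lowess, span 0.3), thinning, and leaving out each library. Intervals cover counting error only.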

Additional observations from a re-analysis of the deposited data

Results flagged for a closer look

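Effects on OXPHOS members differed between cells with and without lipase inhibitors by the interaction test. With ISO 23 members had a higher effect under inhibitors and 1 a lower one (all genes 14.9% and 16.6%), and with SR-3420 the counts were 24 and 1 (12.5% and 14.8%). With the trend with length removed, 8 and 6 members had a higher effect, beside 15.8% and 12.5% of all genes. The named members were Atp5d (1.11), Atp5g1 (0.89) and Atp5sl (0.65) with ISO, and Ndufa13 (0.79), Uqcr11 (0.72) and Ndufs7 (0.69) with SR-3420, as log2 differences of effects. Cox4i2 had a lower effect under inhibitors, by -0.59 with ISO and by -0.63 with SR-3420. Both tests rest on the same Vehicle and Lipase Inh. + Vehicle samples, and other short genes had interaction medians of 0.23 and 0.33.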

How the results depend on the processing

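Counts are given as members higher and lower. The fall with SR-3420 (59 lower) and the rise with ISO under inhibitors (49 higher) stayed within 1.5 times under DESeq2 size factors, DESeq2, other filters, the compared groups alone, thinning and the block. With total counts alone the counts were 0 and 30 for ISO, 0 higher for SR-3420, 21 and 3 for ISO under inhibitors, and 0 lower in both interactions. With no filter 6 were lower for ISO (17.6% of all genes) and 0 higher for SR-3420 (18.2%). In both interactions 0 were lower (11.2% and 10.7%). These last 3 counts were also 0 with DESeq2 and with the compared groups alone, where ISO had 5 higher (24.7%). Thinning to the smallest total gave 5 higher for ISO and, in its interaction, 15 higher and 0 lower, with 0 lower in that of SR-3420. With the trend with length removed ISO had 24 higher, SR-3420 25 lower, and the interactions 8 (ISO) and 6 (SR-3420) higher. With the trend estimated without the members ISO had 24 higher and 1 lower (27.6% and 24.5% of all genes). SR-3420 had 27 lower (23.5%), and the interactions 8 and 6 higher (15.8% and 12.5%). At the study's fold threshold the counts were 0 and 0 for ISO, SR-3420 and the SR-3420 interaction, 4 and 0 for ISO under inhibitors, 3 and 0 for the ISO interaction and 4 higher for ISO against SR-3420.

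Same-numbered samples correlated by -0.0118 (number 1), 0.150 (number 2) and 0.190 (number 3) on average, and 14 of 18 samples correlated best with their own number, as a hint from the data and not the design, so the numbers were not taken to pair the samples. A replicate block gave 5 lower for ISO, 0 higher for SR-3420, 1 lower for SR-3420 under inhibitors and 44 and 35 higher for the ISO and SR-3420 interactions (all genes 18.5% and 16%), and with the trend with length removed as well 28 higher for ISO, 2 and 36 for SR-3420, and 15 and 10 higher for the interactions.

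Leaving out 1 library at a time gave 2 to 15 higher and 4 to 7 lower for ISO, 0 to 0 higher and 47 to 60 lower for SR-3420, 39 to 54 higher and 1 to 1 lower for ISO under inhibitors, 0 to 1 lower for SR-3420 under inhibitors, 13 to 42 higher and 0 to 1 lower for the ISO interaction, 12 to 25 higher and 0 to 1 lower for the SR-3420 interaction, and 46 to 64 higher and 0 to 1 lower for ISO against SR-3420. Without members above 1 count per counted base, short minus long members had a median difference of -0.025 for ISO under inhibitors (0.039 with all), and the medians of short and long members were 0.10 and 0.31 in the ISO interaction (0.37 and 0.31 with all) and 0.28 and 0.39 in that of SR-3420 (0.35 and 0.33 with all). Among the calls of members named for the largest changes, 223 of 242 repeats under other settings and 145 of 168 without 1 library kept the call. The cause of these changes was not tested.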
